A study of Mus musculus with 2 samples.

Results

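Long noncoding RNAs (lncRNAs) were examined in J-RGCs, a type of mouse retinal ganglion cell. The 7 RNAs are Malat1, Neat1, Miat, Rmst, Snhg1, Snhg11 and Gas5. They were chosen by name, as the rows carrying these symbols among the 24015 gene symbols of the count tables. All 7 symbols had a row. The series holds a single group with 2 libraries, A and B. Retinas of 5 to 6 mice from 1 litter were pooled for each library at postnatal day 6, with another litter for the other library. J-RGCs were marked by a GFP (green fluorescent protein) transgene described as specific to them, and were purified with magnetic beads and flow cytometry. The sources used here do not name the transgene's promoter, the strain or the sex of the mice. With no second cell type, age or treatment, every comparison is between RNAs or between the 2 libraries, and each p-value below measures only these libraries. In pooled cells, fewer cells with an RNA and less RNA per cell cannot be told apart.

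Gene counts summed to 7916204 in A and 13744313 in B. All 10 ganglion cell markers listed for this report, among them Slc17a6 and Pou4f2, stood at or above 100 CPM (counts per 1000000 gene counts) in both libraries. Of the other cells' markers at least 1 CPM in both libraries was reached by 6 of 8 for microglia, 5 of 9 for photoreceptors, 2 of 8 for amacrine and bipolar cells, 3 of 7 for Müller glia and astrocytes, and 4 of 7 for endothelial and mural cells. Their summed levels in A and B were 303 and 365 CPM for microglia, 41.1 and 41.7 CPM for photoreceptors, 101 and 17.2 CPM for amacrine and bipolar cells, 420 and 358 CPM for the glia, and 407 and 115 CPM for endothelial and mural cells. Those sums rested on a few genes in several lists: Grm6 gave 96.4 CPM of the amacrine and bipolar sum in A, and Rgs5 342 CPM of the mural sum. Defining markers at or near 0 included Cldn5 of endothelium (0 and 0.0728 CPM), Chat of amacrine cells (0 and 0.0728 CPM), Rlbp1 of Müller glia (0 and 1.60 CPM) and Gnat1 of rods (0 and 0.291 CPM). Their part in the levels of the 7 RNAs was not tested.

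As background, lncRNAs carry no long conserved reading frame, and many, though not all, are transcribed and spliced like messenger RNAs. Several act as the RNA core of a nuclear compartment. Malat1 is concentrated in nuclear speckles, where splicing factors gather. Neat1 is the scaffold without which paraspeckles do not form, and its long isoform is the one that builds them. Miat (also Gomafu or Rncr2) marks a separate nuclear domain in neurons and was described early in the developing retina. Rmst is a neural lncRNA known as a partner of the factor Sox2. Snhg1, Snhg11 and Gas5 are host genes: small nucleolar RNAs (snoRNAs), which guide the chemical modification of ribosomal RNA, are cut from their introns, and the spliced exons are left as the lncRNA. Spliced Gas5 is known as a target of nonsense-mediated decay, coupled to translation.

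The start regions of 4 of these RNAs are shown because they differ in sequence at the start. The 4 range from the most abundant lncRNA of the cells to Snhg1, the lowest of the 3 host genes. The sequences are from RefSeq on GRCm38.p6, in which 5 of the 7 RNAs matched a promoter window (Malat1, Miat, Snhg1, Snhg11 and Gas5) and Neat1 and Rmst did not. Each is printed from 100 bases before to 50 bases after the RefSeq start site, on the RNA's own strand. Capitals mark the 7 letters ATAAATA on either strand (in Snhg1 together with the overlapping TATAAA, read on the opposite strand), the 8 letters TGACGTCA, and a pyrimidine tract at the start site.
Malat1, chr19:5802623-5802772, minus strand: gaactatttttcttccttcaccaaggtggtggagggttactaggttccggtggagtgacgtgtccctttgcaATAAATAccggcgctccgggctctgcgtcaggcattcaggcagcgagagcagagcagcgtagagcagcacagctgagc
Snhg11, chr2:158375613-158375762, plus strand: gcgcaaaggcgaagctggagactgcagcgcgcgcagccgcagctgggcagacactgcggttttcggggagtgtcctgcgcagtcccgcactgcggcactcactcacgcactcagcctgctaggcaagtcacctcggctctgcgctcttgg
Gas5, chr1:161035066-161035215, plus strand: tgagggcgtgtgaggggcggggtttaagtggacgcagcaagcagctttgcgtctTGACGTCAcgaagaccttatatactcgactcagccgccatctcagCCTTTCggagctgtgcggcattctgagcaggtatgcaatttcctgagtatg
Snhg1, chr19:8723387-8723536, plus strand: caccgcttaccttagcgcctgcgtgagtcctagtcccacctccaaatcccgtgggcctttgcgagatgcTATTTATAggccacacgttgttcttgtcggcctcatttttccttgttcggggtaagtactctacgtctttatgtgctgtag

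ATAAATA, a letter run chosen after reading the Malat1 window, began 28 bases before the start in Malat1 and, on the opposite strand, 31 bases before it in Snhg1. On either strand it occurred in 5.60% of 32851 RefSeq promoter windows of 300 bases. TATAAA, the core TATA letters, occurred in 13.6% of the windows and in Snhg1 overlapped ATAAATA. TGACGTCA, the letters of a full cyclic AMP response element, lay 46 bases before the start of the second of 2 Gas5 windows and occurred in 1.79% of windows. A pyrimidine tract, defined as a C followed by at least 4 pyrimidines and beginning within 5 bases of the start, was found in that Gas5 window (6 bases) and in Miat (7 bases), and in 16.1% of all windows. Such tracts at the first base are known as the mark of transcripts whose translation follows growth signals. TGACG, the shorter form of the response element, was found in 20.8% of windows and had 3 matches in the Malat1 window, at 45 bases before the start and, on the opposite strand, at 154 and 3 bases before it, and 2 in the second Gas5 window, both within TGACGTCA. None of these letter patterns was found in the Snhg11 window. These matches describe letters, no measurement here bears on the promoters, and the start sites used in these cells were not measured.

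Malat1 was the most abundant lncRNA in both libraries, and Neat1, its chromosomal neighbour, had 3 and 19 counts. Snhg11 was the highest of the 3 host genes, Gas5 and Miat were intermediate among the 7, and Snhg1 and Rmst were lower. The description of the 7 as abundant therefore held for some of them: 6 reached 1 CPM in both libraries, where 46.8% of all genes did, 4 reached 100 CPM, where 6.53% of all genes did, and 2 reached 1000 CPM. They were picked as known lncRNAs with earlier results of these data in view, so these counts are a description. Together the 7 took 1.04% of all counts in library A and 1.51% in library B (1.28% ± 0.331, mean ± SD, n = 2).

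**Figure D1:**
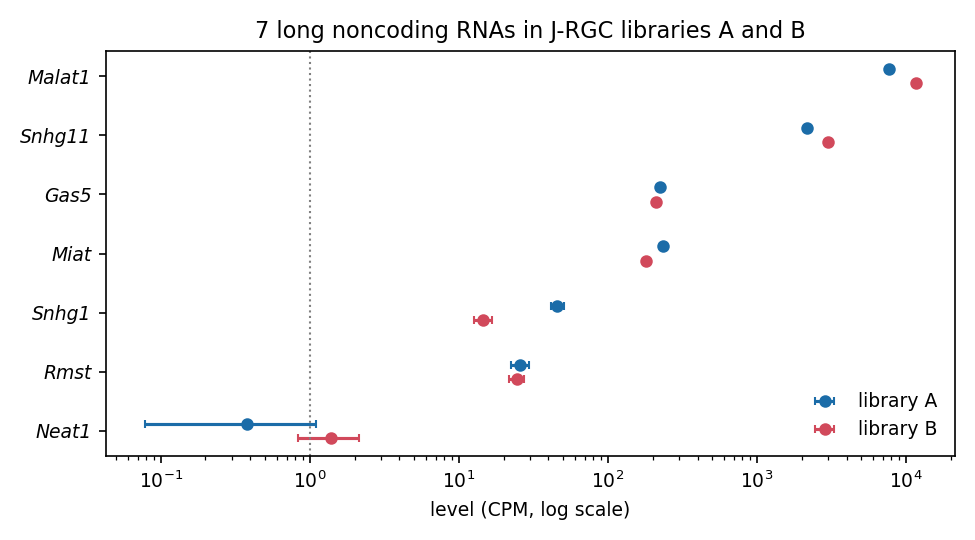
Level of each of the 7 lncRNAs in library A and library B, in CPM on a log scale, with bars for the exact 95% Poisson interval of the count and a dotted line at 1 CPM. Malat1 stands at 7740 and 11668 CPM at the top and Neat1 at 0.379 and 1.38 CPM at the bottom, the intervals of Snhg1 lie apart, and those of Rmst overlap.

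Malat1 was counted 61272 times in A and 160371 times in B, or 7740 and 11668 CPM (9704 ± 2778, mean ± SD, n = 2). It ranked 7 and 5 among all gene symbols. About 1 in every 129 gene counts in A and 1 in every 85.7 in B came from it. The files held 1807 rows that RefSeq classes as lncRNA, and their share of the gene total was 2.18% in A and 2.98% in B. Malat1 alone made up 35.5% and 39.1% of those lncRNA counts. Both libraries thus had Malat1 as the leading lncRNA, with the higher level in B.

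Neat1 was counted 3 times in A and 19 times in B, which is 0.379 CPM (exact 95% Poisson interval 0.0782 to 1.11) and 1.38 CPM (0.832 to 2.16). These intervals cover counting error only, since amplified reads carry no molecular identifiers. In A the count equalled the floor of 3 counts, and in both libraries it stood near the middle of the gene list: 46.3% of gene symbols in A and 47.4% in B had fewer counts. Among lncRNA rows it ranked 390 in A and 384 in B. Neat1 was thus at the floor in A and above it, at a low level, in B. The sources used here do not say whether the annotation held the short isoform, the long isoform or both.

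Frmd8, which flanks the pair in RefSeq order on the side of Neat1, was low as well. It stood at 0.379 CPM in A and 1.31 CPM in B, close to Neat1 itself. Malat1 was therefore the only highly counted gene of these 3 in both libraries.

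Miat was counted 1845 and 2468 times, or 233 CPM in A and 180 CPM in B (206 ± 37.8, n = 2), and ranked 12 and 14 among lncRNA rows. Rmst was counted 204 and 336 times, or 25.8 and 24.4 CPM (25.1 ± 0.936, n = 2), and ranked 51 and 50. Scaled to the gene total, Rmst did not pass the test between the libraries (adjusted p = 0.623 by the exact binomial test) and Miat was higher in A, and the Rmst difference grew with other scalings, as given with the comparison of libraries. Neither stood beside a highly counted neighbour: Mn1 and Cryba4, which flank Miat, lay at or below 1.09 CPM in both libraries, and Tmpo and Nedd1, which flank Rmst, at 16.5 and 33.3 CPM and at 1.77 and 9.97 CPM. The microRNA gene Mir1251, which lies within Rmst, had 0 and 9 counts.

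Of the 3 host genes, Snhg11 was counted 17156 times in A and 41563 times in B. That is 2167 and 3024 CPM (2596 ± 606, n = 2), rank 41 and 19 among all gene symbols and rank 3 among lncRNA rows in both libraries. RefSeq lists Snhg11 as lncRNA, whereas GENCODE M21 types the gene as protein-coding, so its class differs between annotations. Its neighbour Lbp had 0 and 2 counts and Ralgapb 202 and 201 CPM. Snhg11 was thus high in both libraries between a gene with almost no counts and a moderately counted one.

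Gas5 was counted 1773 and 2879 times, or 224 CPM in A and 209 CPM in B (217 ± 10.3, n = 2). In RefSeq its span overlaps Zbtb37 (10.9 and 20.1 CPM). No source used here says whether counting used strand, so reads from overlapping genes cannot be told apart. Snhg1 was counted 364 times in A and 201 times in B, or 46.0 and 14.6 CPM (30.3 ± 22.2, n = 2). It is the member with the largest spread relative to its mean among the 6 that reached 1 CPM in both libraries. Its neighbours Slc3a2 and Wdr74 stood at 28.7 and 31.1 CPM and at 5.31 and 11.5 CPM.

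Other noncoding snoRNA hosts listed for comparison were lower than all 3. Rian, which also hosts snoRNAs, was not in that list and stood at 724 and 764 CPM, above Gas5. Of 18 listed symbols 11 had a row, 6 reached 1 CPM in both libraries and 0 reached 100 CPM, with a median of 1.84 CPM against 1.64 CPM over all genes. The highest were Snhg5 at 5.43 and 7.93 CPM, Snhg12 at 4.17 and 8.88 CPM, and Snhg6 at 7.20 and 4.66 CPM. Dancr had 0 and 9 counts. Per kilobase of exon, Gas5 exceeded Snhg5 14.9-fold, with a 95% interval of 5.11 to 43.6. The snoRNAs with a row were hardly read: of 114 rows for snoRNAs and related Cajal body RNAs 30 had a count in A and 65 in B, and 1 reached 1 CPM in both. Snord47, within Gas5, had 5 and 33 counts, and Snord22, within Snhg1, had 3 and 8. Of the snoRNAs that RefSeq places within each host, 1 of 8 had a row under its RefSeq symbol for Gas5, 1 of 8 for Snhg1 and 0 of 2 for Snhg11. The levels of the others are not known here.

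**Figure D2:**
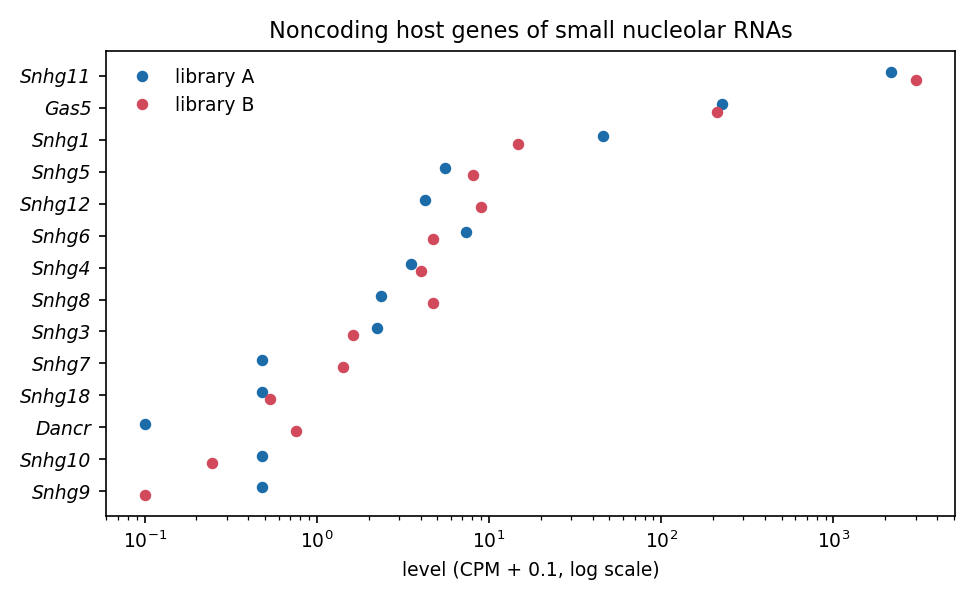
Level of the 3 host genes Snhg11, Gas5 and Snhg1 and of 11 other noncoding snoRNA hosts in libraries A and B, as CPM plus 0.1 on a log scale. Snhg11 (2167 and 3024 CPM) and Gas5 (224 and 209 CPM) stand apart from the hosts below Snhg1, all under 10 CPM.

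**Figure D3:**
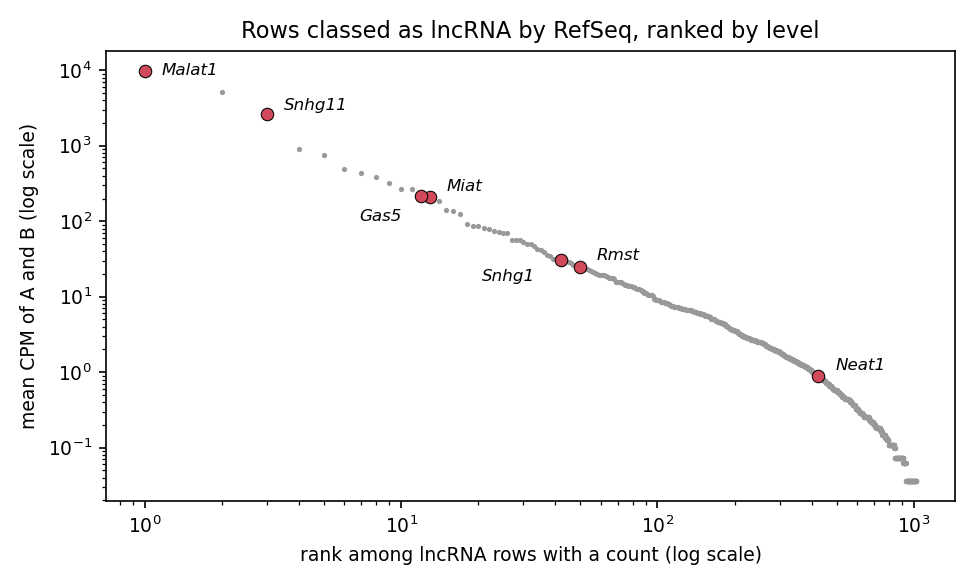
Mean CPM of libraries A and B against rank for the rows that RefSeq classes as lncRNA and that had a count, both on log scales, with the 7 RNAs in red. Malat1 leads, Snhg11 holds the third place, and Neat1 lies at a mean of 0.881 CPM in the steep lower part.

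CPM favours long transcripts, so the order of the RNAs was taken per kilobase of exon, with all GENCODE M21 exons of a gene merged. Mean levels per kilobase were 1390 CPM for Malat1, 305 for Snhg11, 57.6 for Gas5, 22.2 for Miat, 10.2 for Snhg1, 3.38 for Rmst and 0.0424 for Neat1. The order was the same in A and in B at all 7 positions. Neighbours in this order were compared by a ratio whose 95% interval combined counting error with the trended dispersion of edgeR, and 6 such ratios were computed, with no adjustment for their number.

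Malat1 exceeded Snhg11 4.56-fold (1.52 to 13.7), although without library B the log2 ratio of 2.12 had an interval of -0.08 to 4.33. Snhg11 exceeded Gas5 5.28-fold (1.94 to 14.4). Gas5 over Miat was 2.60-fold, with a lower bound of 1.03 (upper bound 6.51), and this call ended with edgeR's common dispersion (log2 ratio 1.38, interval -0.06 to 2.82), with CPM not corrected for length (0.07) and without either library. Miat and Snhg1 were not separated (2.18-fold, 0.825 to 5.73), except without library A (log2 ratio 1.97) and without length correction (2.77). Snhg1 exceeded Rmst 3.02-fold (lower bound 1.14), a call that ended with the longest transcript in place of merged exons (log2 ratio 0.36) and without library A (0.58). Rmst exceeded Neat1 79.8-fold (26.3 to 242), and the interval excluded 1 under every length and library setting tried. The fold was 49.5 without library A and 190 without B, and lay between 28.5 and 221 with other lengths.

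The place of Snhg1 depended most on transcript length. Merged exons of Snhg1 came to 2969 bases over 18 GENCODE transcripts, but the transcript with a RefSeq accession is 605 bases long. With RefSeq-linked transcripts, an alternative chosen after the data were seen, Snhg1 stood at 50.1 CPM per kilobase, above Miat at 23.6. The log2 ratio of Miat to Snhg1 was then -1.09, with an interval of -2.49 to 0.31. Neat1 stayed last even with its short isoform of 3004 bases, at 0.293 CPM per kilobase.

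**Figure D4:**
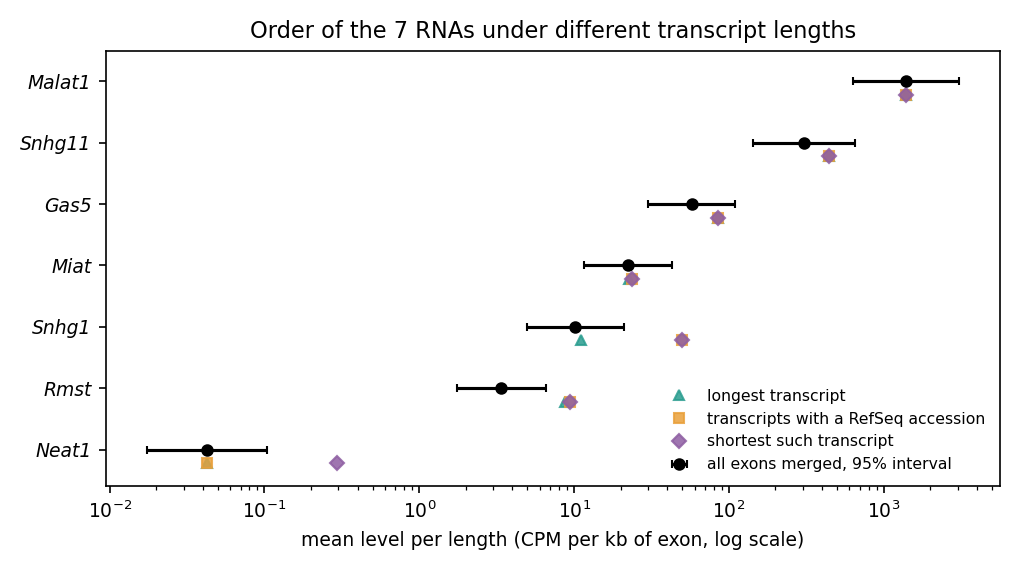
Mean level of the 7 RNAs in CPM per kilobase of exon on a log scale, with the 95% interval for merged exons in black and the value under 3 other transcript lengths below it. Malat1 (1390) and Snhg11 (305) keep their places, whereas Snhg1 moves from 10.2 to 50.1 with its RefSeq-linked transcript.

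Malat1 was 32776-fold higher than Neat1 per kilobase (95% interval 9922 to 108268), and 4740-fold with the short Neat1 isoform. It was 25107-fold without library A and 60751-fold without B, where Neat1 rests on 3 counts. Malat1 exceeded Meg3, an imprinted lncRNA that ranked second by CPM at 3472 and 6882 CPM, 4.86-fold per kilobase (1.57 to 15.0). That call rested on length: the log2 ratio was 0.91 (-0.72 to 2.54) without length correction and -0.97 (-2.60 to 0.66) with the shortest RefSeq-linked Meg3 transcript. Without A it was 2.13 (-0.09 to 4.36), close to 2.28 with both libraries, and the interval from 1 library is wider by construction. Snhg11 over Meg3 was 1.06-fold (0.351 to 3.22), and its direction turned without length correction (log2 ratio -0.996), without A (-0.10) and with that Meg3 transcript (-2.63). These 3 ratios and those to Snhg5 and Srrm2 were chosen after values were seen, and with the 6 above make 11.

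The other lncRNAs listed for comparison had a median of 2.58 CPM. The median was 206 CPM for the 7 RNAs and 1.64 CPM over all genes. Of 51 symbols 37 had a row, and 5 of these had no count in either library. In both libraries 19 of the 37 reached 1 CPM, where 46.8% of all genes did, and 7 reached 100 CPM, where 6.53% did. After Meg3, the highest by CPM were Kcnq1ot1, antisense in an imprinted cluster (895 ± 80.8 CPM), Rian of the Meg3 locus (744 ± 28.2 CPM), the X-inactivation RNA Xist (633 and 359 CPM), Tug1, described in retinal development (271 ± 42.9 CPM), 2900097C17Rik, now named Norad (144 and 240 CPM), Peg13 (135 ± 28.9 CPM) and 1700020I14Rik, or Cyrano (56.7 ± 8.20 CPM). By mean CPM, Gas5 and Miat stood between Tug1 and 2900097C17Rik. Hotair, Dlx6os1, Dlx1as, Foxd2os and Emx2os had no count, which allows up to 0.379 CPM in A and 0.218 CPM in B.

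Between the libraries 5 of the 7 RNAs lay within 2-fold. A gene was called different by an exact two-sided binomial test of its counts with a Benjamini-Hochberg adjusted p under 0.05, if the levels, with 0.5 CPM added to each, also differed at least 2-fold. Of the 14107 genes tested, 42.6% were called, 32.3% higher in B and 10.3% higher in A. Among the 7, 2 were called, Snhg1 and Neat1, a share no larger than that background. Of genes with a mean of at least 10 CPM, 29.1% were called. Only Snhg1 of the 2 belongs to that set, since Neat1 had a mean of 0.881 CPM. This test compares 2 separately amplified libraries and says nothing of conditions. Scaling by TMM or by DESeq2's size factors moved ratios towards A, by 0.38 and 0.48 on the log2 scale before the pseudocount, which makes the shift smaller for low genes. With TMM 37.7% of genes were called, and 1 of the 7. Calls split into 3241 higher in B and 2080 in A with TMM, and 2960 and 2278 with DESeq2's factors, against 4550 and 1458.

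Snhg1 was 3.14-fold higher in A (counting interval 2.64 to 3.75; log2 ratio of B over A -1.62, adjusted p = 7.86e-40 by the exact binomial test). With edgeR's exactTest its adjusted p was 0.525 and 0 of the 7 RNAs were called, against 2.52% of all genes. That test takes its dispersion from the differences between the same 2 libraries, so few calls follow from its construction and a lost call there says little. Of the 7 endothelial and mural markers 3 were also called higher in A, the mural genes Kcnj8, Pdgfrb (51.9 and 10.3 CPM) and Rgs5 (342 and 82.4 CPM), and 3 higher in B, the endothelial genes Cdh5, Tek and Pecam1, where 10.3% and 32.3% of all genes were called in those directions. Cldn5 was at 0 and 0.0728 CPM. Markers of other cells called higher in A were Grm6 (96.4 and 0.582 CPM) of bipolar cells, Slc1a3 (11.1 and 3.06 CPM) and Aqp4 (4.93 and 0 CPM) of glia, and Pde6b (11.7 and 5.31 CPM) and Nr2e3 (9.85 and 4.15 CPM) of rods. The part of all these genes in the Snhg1 difference was not tested. Neat1 was 3.65-fold higher in B, with a counting interval of 1.07 to 19.2 from its 3 and 19 counts (adjusted p = 0.0448 by the exact binomial test). That call ended with TMM scaling (adjusted p = 0.152), DESeq2's size factors (0.194), no minimum count (0.0532), a pseudocount of 2 (log2 ratio 0.51, under 2-fold) and edgeR's exactTest (adjusted p = 0.649).

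Malat1 was 1.51-fold and Snhg11 1.40-fold as high in B as in A, and Miat was 1.30-fold higher in A. Those sizes were within the 2-fold limit although counting error is small at these depths. Gas5 was 1.07-fold and Rmst 1.05-fold as high in A as in B. Over the scalings and pseudocounts tried, the log2 ratio of B over A ranged from 0.12 to 0.60 for Malat1, from 0.004 to 0.49 for Snhg11, from -0.85 to -0.36 for Miat, from -0.57 to -0.085 for Gas5 and from -0.54 to -0.063 for Rmst. With DESeq2's size factors the exact binomial test gave Snhg11 an adjusted p of 0.807. Rmst passed an adjusted p of 0.05 with TMM (0.000876) and with those factors (5.81e-05), under 2-fold in both. Among other listed lncRNAs with a mean of at least 10 CPM, Firre was called higher in B (103 and 467 counts) and Mir22hg higher in A (20.7 and 1.46 CPM).

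**Figure D5:**
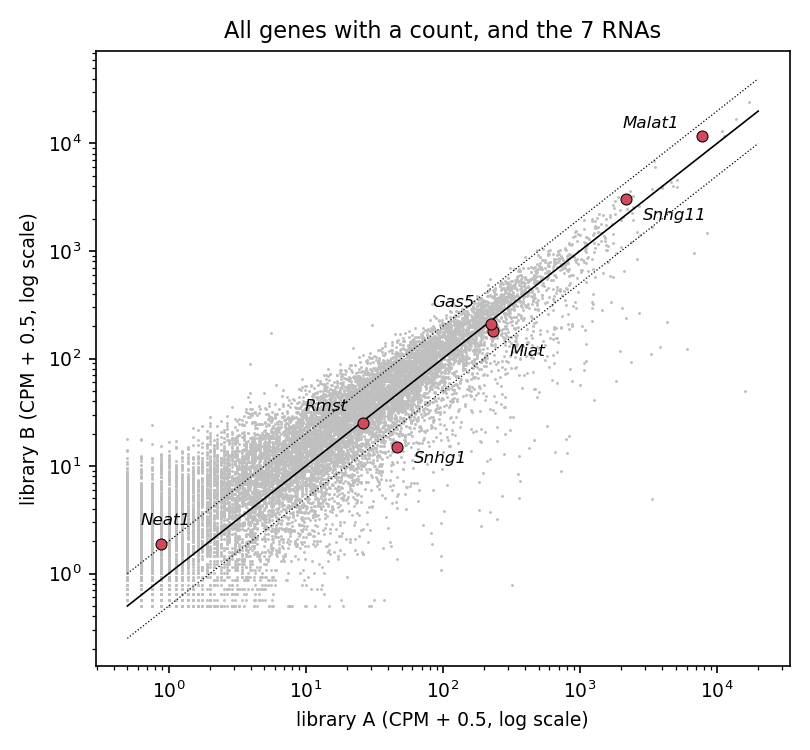
CPM plus 0.5 in library A against library B on log scales for all genes with a count (grey) and the 7 RNAs (red), with the line of equality and dotted lines at 2-fold. Malat1, Snhg11, Gas5, Miat and Rmst lie inside the 2-fold lines, Snhg1 (46.0 and 14.6 CPM) lies below them, and Neat1 lies at the low end.

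All 20 listed paraspeckle proteins reached 1 CPM in both libraries, 4 of them 100 CPM, with a median of 56.0 CPM against 1.64 CPM over all genes. The highest were the nuclear matrix protein gene Matr3 at 368 and 522 CPM, the chromatin remodeller Smarca4 at 394 and 374 CPM, and Sfpq, a core paraspeckle protein, at 189 and 237 CPM. The other core genes Nono and Pspc1 stood at 68.5 and 105 CPM and at 30.3 and 52.5 CPM. Genes of the paraspeckle proteins were thus read in the same libraries in which their scaffold RNA Neat1 was at 0.379 and 1.38 CPM.

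All 17 listed nuclear speckle genes reached 1 CPM in both libraries and 11 reached 100 CPM, with a median of 163 CPM. Srrm2, the large scaffold protein of speckles, led at 2610 and 1508 CPM, before the splicing factor Srsf5 at 395 and 875 CPM and Rbm25 at 314 and 458 CPM. Malat1 exceeded Srrm2 8.67-fold per kilobase (95% interval 2.86 to 26.2), 14.2-fold without library A, 5.45-fold without B and 4.71-fold without length correction. Among 12 genes for the cleavage and protection of the Malat1 end, mostly subunits of ribonuclease P, 11 reached 1 CPM in both libraries and 0 reached 100 CPM. Their highest members were Pop4 at 24.6 and 14.9 CPM, Rpp30 at 11.2 and 15.6 CPM and Rpp14 at 6.44 and 16.0 CPM, and Elac2, which cuts the other side of the Malat1 tRNA-like end, stood at 1.26 and 5.46 CPM.

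Of the proteins known to bind Miat or Rmst, 5 of 6 reached 1 CPM in both libraries. Hnrnpa2b1, a partner of Rmst, stood at 190 and 301 CPM, the splicing factor Srsf1 at 190 and 135 CPM, and Qk at 184 and 116 CPM. Celf3, which binds Miat, stood at 30.7 and 58.4 CPM, and Sf1, the branch point binding protein that binds Miat, at 9.60 and 46.6 CPM. Sox2, the progenitor and glial factor with which Rmst acts, had 2 and 1 counts, under the floor of 3. Rmst was thus read at 25.8 and 24.4 CPM in libraries where Sox2 stood at 0.253 and 0.0728 CPM.

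For the host genes, 10 of 11 listed symbols of snoRNA-binding proteins had a row, and 9 reached 1 CPM in both libraries. Nop56 (311 and 363 CPM) and Nop58 (143 and 133 CPM), core proteins of box C/D snoRNAs, stood above Nhp2l1 (26.7 and 38.3 CPM), and the methyltransferase Fbl stood at 4.93 and 9.39 CPM. All 14 listed genes of nonsense-mediated decay reached 1 CPM, led by the kinase Smg1 at 236 and 332 CPM and Upf3b at 339 and 80.7 CPM. Upf3b and Smg9 (269 and 4.73 CPM), Eif4a3 (90.6 and 34.4 CPM) and Smg5 (44.1 and 16.7 CPM) were the 4 called between the libraries, all higher in A, where 10.3% of all genes were called in that direction. The central helicase Upf1 stood at 9.60 and 14.6 CPM.

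The genes nearest to each RNA over both libraries were found by Euclidean distance of log2(CPM + 0.5), a likeness over 2 libraries only. Malat1 lay nearest to Snap25 (distance 0.52) and Map1b (0.995), both highly expressed in neurons. Snhg11 lay nearest to Eif4g2 (0.13) and Rtn1 (0.19), Gas5 to Rb1 (0.017) and Mprip (0.064), Miat to Wdr26 (0.034) and Tpt1 (0.038), Rmst to Pgd (0.046) and Agk (0.048), and Snhg1 to Tbc1d14 (0.066) and Lgi3 (0.072). Neat1 had the same counts as Alyref2 and Apitd1 (distance 0), which at such low counts carries no information on likeness.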

How the data were processed

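RNA from sorted postnatal day 6 J-RGCs was purified with PicoPure columns and made into Nugen Ovation Ultralow V2 libraries, per the labels' protocols. For each library a table of raw read counts by gene symbol was deposited by the authors. HTSeq 0.6.1, TopHat2 2.0.10, Trimmomatic 0.32 and the build mm9 are listed in the submitters' processing notes. No source used here gives the annotation, settings or strand use. Summary lines were kept out of totals: 54.3% of reads in A and 47.9% in B lay outside annotated features, and 18.5% and 20.8% aligned to several places, so genes with near-identical copies are uncertain.

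Counts were divided by the gene total and scaled to 1000000 (CPM). Lengths came from GENCODE M21, on another build, so its coordinates were not used with the counts, and 22716 symbols had one. RefSeq GRCm38.p6 gave classes for 23856 symbols and the neighbours. Ratio intervals used edgeR 4.0.16 in R 4.3.3, with TMM factors and only an intercept, on 11272 genes. Neat1 did not pass that filter and took the dispersion at the low end of the trend. With 1 group the quasi-likelihood test had no contrast. The binomial test took genes with at least 10 counts in all, which all 7 RNAs passed. DESeq2 1.42.0 gave size factors. Python 3.11.15, numpy 2.4.6, pandas 2.3.3 and scipy 1.17.1 were also used. The calculations were first tested on simulated data. For the binomial test these data held counting error only, with no added spread between libraries. They therefore do not show how its calls behave in the real libraries.

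The RNAs, lists and tests were chosen with earlier results of these data known. Named were all 7 RNAs, the 3 highest by CPM in each other list (8 for lncRNAs, and those at 0), lncRNAs of at least 10 CPM called between libraries, and the 2 nearest genes to each RNA. Others, such as Nono, Pspc1, Upf1, Fbl, Sox2, Celf3, Sf1, Elac2, Smg9, Smg5, Eif4a3, Dancr and the marker and neighbouring genes, were picked for role, position or call. A few genes that these rules name are not reported here.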

Additional observations from a re-analysis of the deposited data

How the results depend on the processing

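No paired analysis was possible because there is 1 group. Over 7 alternative settings the sign of B over A held for all 7 RNAs, but most of these settings could not have turned it. No minimum count and edgeR's exactTest keep the same ratio, and a pseudocount added to both levels cannot change its sign. TMM and DESeq2's size factors move ratios towards A, so they bore only on the RNAs higher in B. Of those, Snhg11 was at 0.004 with DESeq2's size factors (adjusted p = 0.807 by the exact binomial test). The number called, 2, was 1 with TMM factors, DESeq2 size factors, no minimum count and a pseudocount of 2, and 0 with edgeR's exactTest, which called 356 genes of all tested.

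Some log2 ratios per length lost their call. Gas5 over Miat did so without length correction (0.071), with the common dispersion (1.38) and leaving out either library (1.25 to 1.53). Snhg1 over Rmst did so with the longest transcript (0.36), without length correction (0.27) and without library A (0.58). Malat1 over Snhg11 did so without library B (2.12). Snhg1 over Rmst kept its call without library B (2.16), as did Malat1 over Snhg11 without A (2.24). Miat over Snhg1 gained one without length correction (2.77) and ranged from 0.695 to 1.97 leaving out a library; it turned to -1.09 with either RefSeq-linked length. With 1 library the interval widens by construction. Malat1 over Meg3 turned with the shortest RefSeq-linked transcript (-0.97) and Snhg11 over Meg3 without length correction (-0.996), leaving out a library (-0.10 to 0.41) and with that transcript (-2.63). The causes of the other changes were not tested.

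The share of the 7 RNAs was 1.04% to 1.51% leaving out a library. Of the nuclear pair, 2 reached 1 CPM without library A and 1 without B. Amacrine and bipolar markers detected were 4 at 0.5 CPM, 1 at 2 CPM and 3 to 4 leaving out a library, and Müller glia and astrocyte markers 4 to 5.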
